A study of Drosophila melanogaster with 6 samples.

Results

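The right arm of chromosome 3 of Drosophila melanogaster, 3R, carried 3293 of the 13016 Insensitive (Insv) binding sites that were mapped in Kc167 cells, or 25.3% of the list. These 3293 sites are all peaks that the deposited list places on 3R, and no score or width entered the choice of peaks. The arm itself was chosen with earlier results of these data known. They come from chromatin immunoprecipitation followed by sequencing (ChIP-seq), in which DNA fragments cross-linked to a protein are pulled down with an antibody, sequenced and piled up into peaks. The labels give 3 ChIP samples, precipitated with a rabbit polyclonal antibody against Insv, and 3 input samples of genomic DNA that was not precipitated. All 6 samples are Kc167, a female cell line derived from late fly embryos, with the genotype given as se/e and no treatment named, so the data describe 1 cell line in 1 state. Per the labels, the antibody had been pre-adsorbed with young embryos.

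Insv is a nuclear protein of flies with a BEN domain, a fold that binds DNA, and it is known as a transcriptional corepressor that acts with Suppressor of Hairless in Notch signalling and in the development of sensory organs of the nervous system. Arm 3R is known for the Antennapedia complex (Scr, Dfd and Antp among its genes) and the bithorax complex (Ubx, abd-A and Abd-B), homeotic genes that set the identity of body segments. It also carries the Enhancer of split complex, whose basic helix-loop-helix repressor genes, such as E(spl)m8-HLH, are direct targets of Notch. The peaks are placed on FlyBase release 5, while the gene table used here is of release 6, and positions of different releases were not mixed. Whether Insv peaks of 3R lie at these or other genes, or in which part of a gene, was not analysed.

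The list gives each peak's start, end and score from the authors' peak caller. It holds no values of single libraries, so depth is unknown, replicate error cannot be computed, and no input level can be set beside a peak. The list does not say which scale the score is on, and it is used here only to rank and describe peaks within this list. Intervals below are exact 95% intervals (Poisson for counts and densities, Clopper-Pearson for shares, order statistics for medians). They cover counting error over peaks of 1 list, and since neighbouring peaks can come from the same stretch of chromatin, they are too narrow as a measure of precision.

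Peaks on 3R were mostly narrow. The median width was 539 bp (95% interval 516 to 560), and the middle of the distribution lay between quartiles of 317 and 971 bp. The narrowest peaks measured 201 bp, a width shared by 36 of them and the smallest in the whole list. Peaks of 201 to 300 bp numbered 709 (21.5% of the arm), and peaks wider than 2000 bp numbered 214 (6.50%). The wide class was small in number but not in extent. It made up 24.0% of the 2614 kb that peaks covered on 3R, against 6.70% for the 709 narrowest. In all, peaks covered 9.38% of the stretch from the first peak of the arm, at 32392, to the last, at 27893815, which is called the span.

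The widths on 3R resembled those on X and lay above those on 3L. The median was 539 bp on 3R against 556 bp on X (531 to 586) and 502 bp on 2L (478 to 527), and these intervals overlap that of 3R. On 3L the median was 459 bp (441 to 482), with an interval below that of 3R. Peaks of 201 to 300 bp made up 21.5% on 3R (20.1 to 23.0), 21.1% on X, 22.8% on 2L and 26.9% on 3L (24.9 to 28.9). The differences in width were not tested.

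Scores on 3R were low in the main and had a thin upper tail. The median score was 15.52 (15.26 to 16.05), the quartiles were 11.32 and 23.64, and the range ran from 5.73 to 355.11. The score 5.73 belonged to a single peak of 201 bp from 27050132 to 27050332, and no peak of the 4 arms described here scored lower. Of the 3293 peaks, 150 scored above 50 (4.56%, 3.87 to 5.32), 23 above 100 (0.698%, 0.443 to 1.05) and 3 above 200. The median on X was 16.32 (15.78 to 16.86), on 2L 16.05 (15.52 to 16.72) and on 3L 14.99 (14.48 to 15.40). Each of these intervals overlaps that of 3R. The arms differed more in the upper tail.

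**Figure D1:**
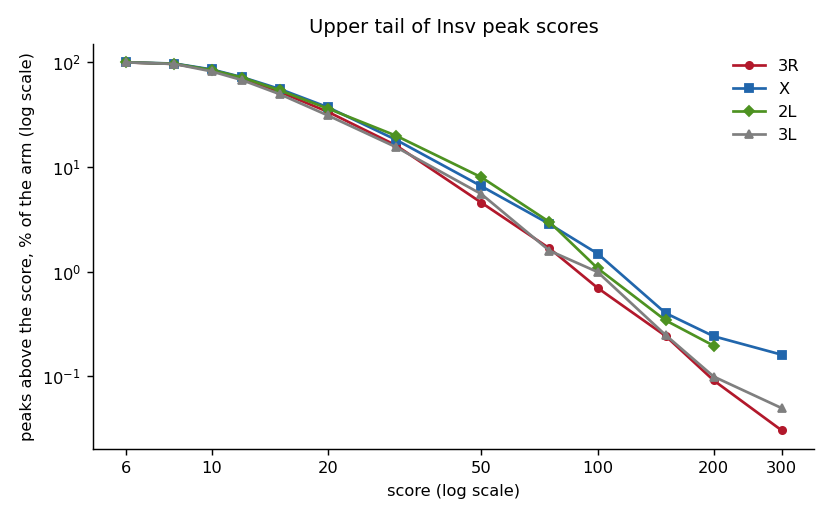
Share of an arm's peaks above a given score, both axes on a log scale, for 3R (circles), X (squares), 2L (diamonds) and 3L (triangles). The curves run together at low scores, and at a score of 50 the curve of 3R (4.56%) lies below those of X (6.55%), 2L (7.97%) and 3L (5.50%).

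Peaks with a score above 50 were sparser on 3R than on X or 2L in tests over peaks, but not at a cut of 30. Over peaks of any score 3R was denser than 2L in such a test. With 1 Mb bins as units that difference was 25.2 ± 15.1 peaks (standard error over bins). Over peaks of any score the excess of 3R over X was slight and held under none of the alternatives given below. Peaks with a score above 50 occurred at 5.38 per Mb of span on 3R (4.56 to 6.32), against 7.33 per Mb on X (6.24 to 8.54), 7.13 on 2L (6.08 to 8.31) and 4.56 on 3L (3.75 to 5.49). The ratio of 3R to X was 0.73 (0.58 to 0.92, exact binomial test, adjusted p = 0.022) and that of 3R to 2L was 0.76 (0.60 to 0.95, adjusted p = 0.022). The ratio to 3L was 1.18 (0.92 to 1.52) and did not pass the threshold of the exact binomial test (adjusted p = 0.19). The tests were two-sided, over peaks, with Benjamini-Hochberg adjustment over 3 comparisons, and were added after the score distributions had been seen. They count each peak as independent, so their p-values are too small. The result depends on where the strong class begins. With scores above 30 the ratios were 0.93 to X (exact binomial test, adjusted p = 0.33), 1.07 to 2L (adjusted p = 0.33) and 1.48 to 3L (adjusted p = 7.62e-08).

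The strongest peak of 3R lay near the end of the arm that faces the telomere, from 27538378 to 27540006, with a score of 355.11 and a width of 1629 bp. It was the first of 22 peaks joined into 1 region of 37.9 kb, with 22710 bp free of peaks ahead of it. The best other peak of that region scored 70.8, and the median of the region was 15.27. Rank 2 was held by a peak from 24972905 to 24974388 with a score of 253.37. It was flanked at 248 and 122 bp by other peaks, of which the best in its region of 9 scored 52.54. Rank 3 lay close by, from 24862136 to 24865894, with a score of 206.26 and a width of 3759 bp. These were the 3 peaks of the arm above 200, and all lay beyond 24 Mb.

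Ranks 4 to 7 lay in the first 6 Mb, on the side of the centromere. Rank 4 ran from 5933883 to 5936349 and scored 197.34. Rank 5, from 277833 to 279863, scored 186.19 in a region whose best other peak scored 23.32. Rank 6, from 1107837 to 1109371, scored 178.57. Rank 7, from 4131870 to 4135441, scored 176.59 and had neighbours at 162 and 66 bp, the best other peak of its region scoring 27.54. The middle of the arm held ranks 8 and 9. These were a peak of 832 bp from 16608267 to 16609098 with a score of 150.94 and a peak from 12067981 to 12069121 with a score of 124.72. Rank 10 lay from 20611398 to 20613504 with a score of 112.8, and the best of the other 5 peaks in its region scored 11.32.

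None of these 10 peaks stood alone, but few peaks of the arm did. Each had at least 5 other peaks in its region, 6 of them lay in regions of 2 to 9 peaks and 4 in regions of 10 or more. Over all peaks of 3R, 6.10% stood alone and 50.3% lay in regions of 10 or more. Of the 150 peaks above 50, 13 stood alone (8.67%), against 5.98% of the rest. A median of 23.5 other peaks lay within 50 kb of the 10 strongest, against 22 for all peaks of the arm. In 9 of the 10 regions the next best score was below 75. The exception was rank 9, where a peak of 103.29 lay in the same region of 50. Every 5 Mb window of the arm held a peak above 120, the best of each ranging from 124.72 to 355.11.

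Width and score ranked the peaks of 3R broadly alike, though the widest peaks were not the very strongest. In 4 equal groups by score, the median width was 281 bp (271 to 291) in the group of lowest scores, then 420 and 707 bp, and 1300 bp (1236 to 1350) in the group of highest scores. Across the 3293 peaks Spearman's rho was 0.78, given as a description, since the peak caller set both values; it was 0.77 on X, 0.78 on 2L and 0.75 on 3L. None of the 5 widest peaks was among the 10 strongest, but all 5 ranked between 14 and 265 by score among the 3293. The 10 strongest measured 832 to 3759 bp, all above the arm's median width of 539 bp. The widest, 9460 bp from 23092363 to 23101822, scored 49.04 and ranked 162 by score. The next, 6971 bp from 23110301 to 23117271, scored 51.97 and belonged to the same region. The others were 6615 bp wide (6702711 to 6709325, score 40.79), 6100 bp (4626792 to 4632891, score 109) and 5883 bp (25628629 to 25634511, score 54.71).

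The region of both widest peaks, from 23064413 to 23121907, was the most filled of those whose covered share is given here. This region was picked for its wide peaks, so a high covered share follows in part from that choice. Its 24 peaks covered 75.4% of 57.5 kb, with a median score of 23.48 and a highest score of 62.92. It ended at a peak-free stretch of 284.9 kb. The 1 Mb bin around it, from 23 to 24 Mb, was poor in peaks, with 73, but had the highest median score of the 27 complete bins (19.98) and the highest median width (701 bp).

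Peak density on 3R differed modestly between large parts of the arm. Of 3 equal parts of the span, the one that faces the centromere held 1155 peaks or 124 per Mb (117 to 132), the middle one 1037 or 112 per Mb (105 to 119) and the one that faces the telomere 1101 or 119 per Mb (112 to 126). Their shares of the arm's peaks were 35.1% (33.4 to 36.7), 31.5% (29.9 to 33.1) and 33.4% (31.8 to 35.1). The first thus lay slightly above an equal share and the middle one slightly below. Among the strongest 50% of the peaks neither departure was seen, as the intervals included an equal share. Median scores in these parts were 14.99, 16.32 and 15.52, and strong peaks above 50 numbered 43, 51 and 56. On 3L the same parts held 80.8, 45.6 (41.1 to 50.5) and 122 peaks per Mb, so the middle of 3L stood well below its outer part. On X they held 121, 110 and 105 per Mb, and on 2L 98.3, 90.5 and 79.5 per Mb. The differences between the parts of 3R were not tested, nor were they tested against those of the other arms.

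**Figure D2:**
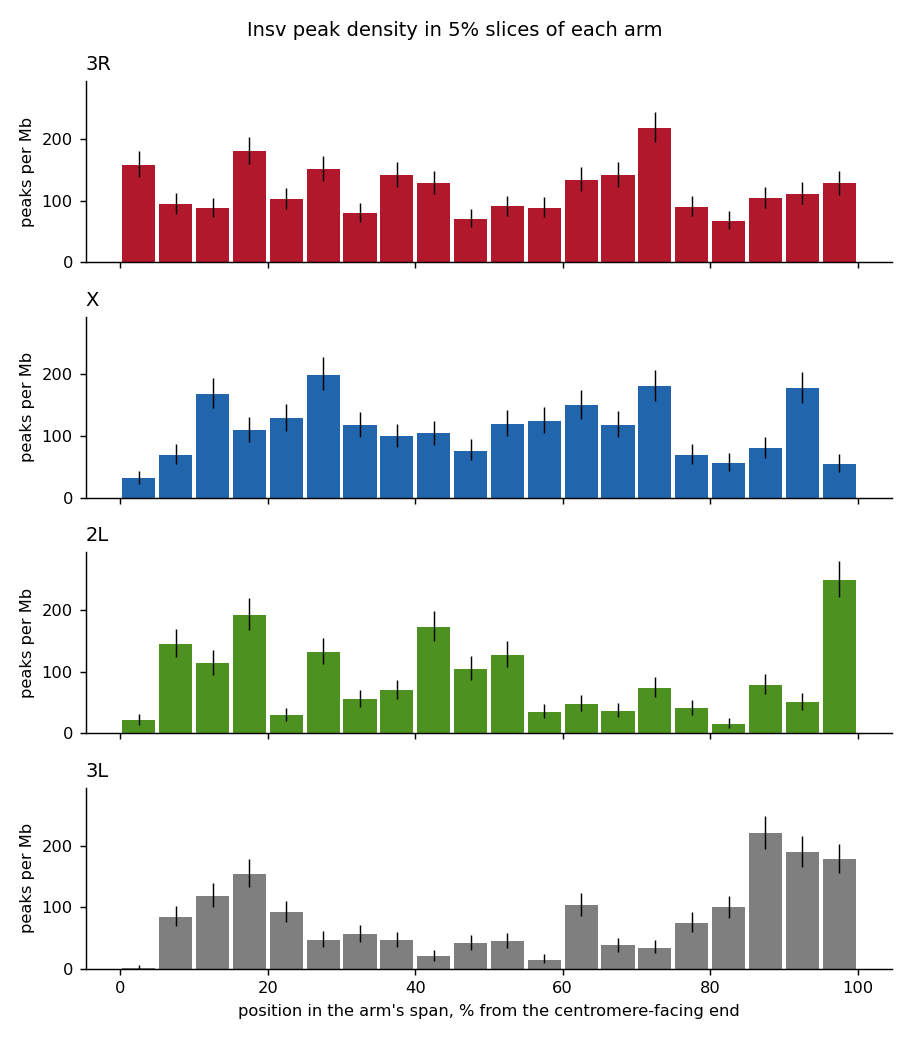
Insv peaks per Mb in 20 slices, each 5% of an arm's span, from the end that faces the centromere (left), with exact 95% Poisson intervals, for 3R, X, 2L and 3L. On 3R the slices run from 67.5 to 218 per Mb, and the lowest slices of X (31.5), 2L (15.7) and 3L (1.64) lie below all slices of 3R.

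With each arm's span cut into 20 slices of equal length, 3R ranged from 67.5 to 218 peaks per Mb and no slice fell below 60. X had 3 such slices, 2L had 9 and 3L had 10. These counts depend on the cut, since the lowest slice of 3R, at 67.5 (54.5 to 82.6), lay close to it. The X slices at 56.6 (43.5 to 72.5) and 54.8 (41.9 to 70.4) have intervals that reach 67.5. The remaining X slice, at 31.5 (21.9 to 43.8), has an interval below that of the lowest slice of 3R. Slices of 3R were also longer, as its span was 27.9 Mb, against 22.3 on X, 22.9 on 2L and 24.3 on 3L. The difference in density between the arms was clearest next to the centromere. The first 2 Mb of 3R held 307 peaks (274 to 343), against 103 on X (84.1 to 125), 129 on 2L (108 to 153) and 53 on 3L (39.7 to 69.3). At the other end of the arms the order was different, with 215 peaks in the last 2 Mb of 3R (187 to 246), 202 on X, 319 on 2L and 374 on 3L. The mappability of reads at these ends is unknown, and how far each arm's sequence reaches towards its centromere was not compared. The part of either in the counts was not tested. Without the 2 Mb that face the centromere the density ratio of 3R to 3L was 1.31 (1.24 to 1.39), against 1.43 over the whole span. The list also has a separate scaffold of 3R heterochromatin, 3RHet, with 3 peaks of 256 to 319 bp and scores of 15.32 to 20.93, which are not among the 3293.

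In 1 Mb bins the peaks of 3R averaged 117 ± 44.0 per bin (SD over 27 complete bins), with a range of 48 to 208. The richest bin ran from 5 to 6 Mb, with 208 peaks (181 to 238) that covered 15.9% of it. It was followed by the bins from 19 to 20 Mb with 199 (172 to 229), from 20 to 21 Mb with 177 (152 to 205), from 1 to 2 Mb with 173 (148 to 201) and from 7 to 8 Mb with 158 (134 to 185). The poorest bin ran from 15 to 16 Mb, with 48 peaks (35.4 to 63.6). The bins from 3 to 4 Mb with 50 (37.1 to 65.9), from 22 to 23 Mb with 62, from 13 to 14 Mb with 64 and from 23 to 24 Mb with 73 came next. The 5 richest bins held 27.8% of the peaks of the arm and the 5 poorest 9.02%. Rich and poor bins lay side by side, as from 5 to 6 Mb (208) and from 6 to 7 Mb (80).

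Rich bins did not in general have stronger peaks. Median scores per bin ran from 13.85 to 19.98, and their rank correlation with the count was -0.04 over the 27 bins, a description only. The 3 bins from 1 to 2, from 20 to 21 and from 2 to 3 Mb had the lowest medians, at 13.97, 13.97 and 13.85, with 173, 177 and 82 peaks. The bin from 12 to 13 Mb had the most peaks above 50, at 13 among 134.

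**Figure D3:**
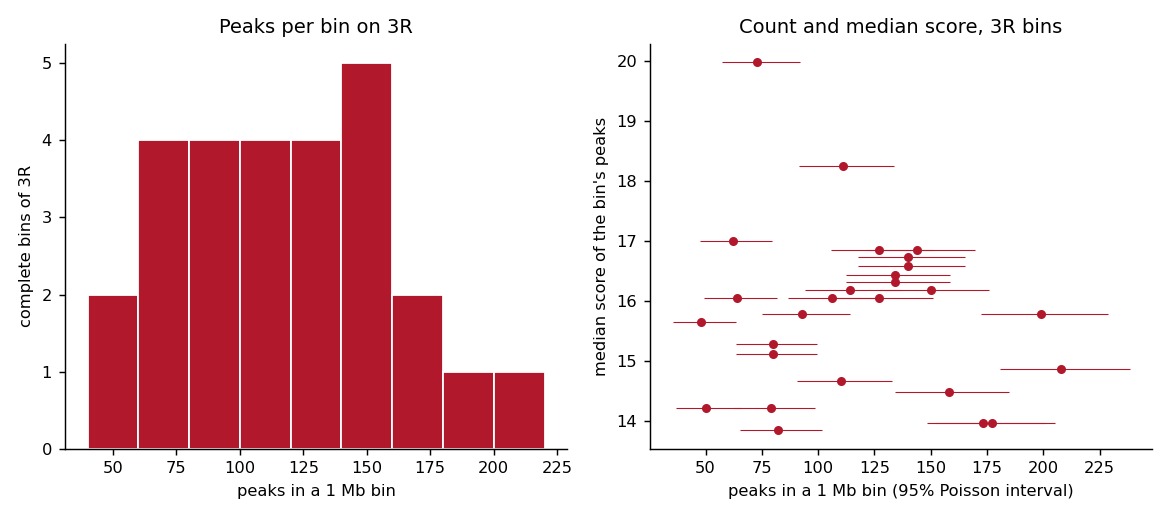
Left, number of complete 1 Mb bins of 3R by their peak count. Right, median score of the peaks in each of these 27 bins against their count, with exact 95% Poisson intervals of the count; counts run from 48 to 208 and median scores from 13.85 to 19.98, with no trend between them (rank correlation -0.04).

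The bins of 3R varied less than those of 2L and 3L. Their SD was 37.5% of their mean, against 37.1% on X, 63.6% on 2L and 73.4% on 3L. The ratio of variance to mean, which is 1 for counts placed independently at 1 rate, was 16.5 on 3R against 15.5 on X, 37.2 on 2L and 45.3 on 3L. With peaks within 5 kb joined and counted as 1, the ratio on 3R was 1.61. Bins with fewer than 50 peaks numbered 1 of 27 on 3R, 2 of 22 on X, 7 of 22 on 2L and 8 of 24 on 3L. Neighbouring bins of 3R showed little likeness in count (Pearson's r 0.06 and Spearman's rho 0.04 over 26 neighbouring bins, a description). On 3L neighbouring bins were more alike (0.55 and 0.59 over 23). These differences in spread were not tested.

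Measured over the span, 3R carried 118 peaks per Mb (114 to 122), against 112 on X (108 to 116), 89.4 on 2L (85.6 to 93.4) and 82.9 on 3L (79.3 to 86.6). The ratio of 3R to 3L was 1.43 (1.35 to 1.51, two-sided exact binomial test over peaks, adjusted over 3 comparisons, p = 2.12e-36). The ratio of 3R to 2L was 1.32 (1.25 to 1.40, exact binomial test, adjusted p = 2.61e-23). That to X was 1.06 (1.00 to 1.11, exact binomial test, adjusted p = 0.040), at the threshold of 0.05, and it lost its call or turned below 1 under each alternative tried. These tests count each peak as independent, whereas peaks lay in groups, so their p-values are too small and their intervals too narrow, as are those for strong peaks above. With 1 Mb bins as units, the means were 117 ± 44.0 peaks on 3R, 113 ± 41.9 on X, 92.0 ± 58.5 on 2L and 84.0 ± 61.7 on 3L (SD over 27, 22, 22 and 24 bins). The difference of means was 33.2 ± 15.2 for 3R minus 3L, 25.2 ± 15.1 for 3R minus 2L and 4.01 ± 12.3 for 3R minus X (standard errors over bins). These standard errors treat bins as independent. Neighbouring bins of 3L were alike in count (Pearson's r 0.55), so the error for 3R minus 3L is too small. No test was run over bins.

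The higher density of 3R over 3L went with more peaks per region and less with more regions. Peaks whose facing edges lay within 5 kb were joined, which gave 634 regions on 3R, 471 on X, 448 on 2L and 507 on 3L. A region of 3R held 5.19 peaks on average, against 5.29 on X, 4.56 on 2L and 3.98 on 3L. Regions occurred at 22.8 per Mb on 3R, 21.2 on X, 19.6 on 2L and 20.8 on 3L. In regions per Mb the ratio of 3R to 3L was 1.09 (0.97 to 1.23, exact binomial test, adjusted p = 0.22) and to X 1.07 (0.95 to 1.21, adjusted p = 0.24). To 2L it was 1.16 (1.03 to 1.31, exact binomial test, adjusted p = 0.047). Joining can draw such ratios towards 1 by itself, since a dense arm can lose more peaks to it, and the size of this was not measured.

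Neighbouring peaks on 3R lay close. The median gap between facing edges was 770 bp, with quartiles of 248 and 2927 bp, against 767 bp on X, 921 bp on 2L and 1028 bp on 3L. Gaps under 200 bp made up 20.4% on 3R (670 of 3292). The smallest was 50 bp, also the smallest in the whole list. For 78.8% of the peaks of 3R (77.4 to 80.2) the next midpoint lay within 5 kb, against 78.7% on X (77.1 to 80.3), 76.4% on 2L (74.5 to 78.2) and 73.6% on 3L (71.6 to 75.5). The interval of 3L lies below that of 3R, and the other intervals overlap it.

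**Figure D4:**
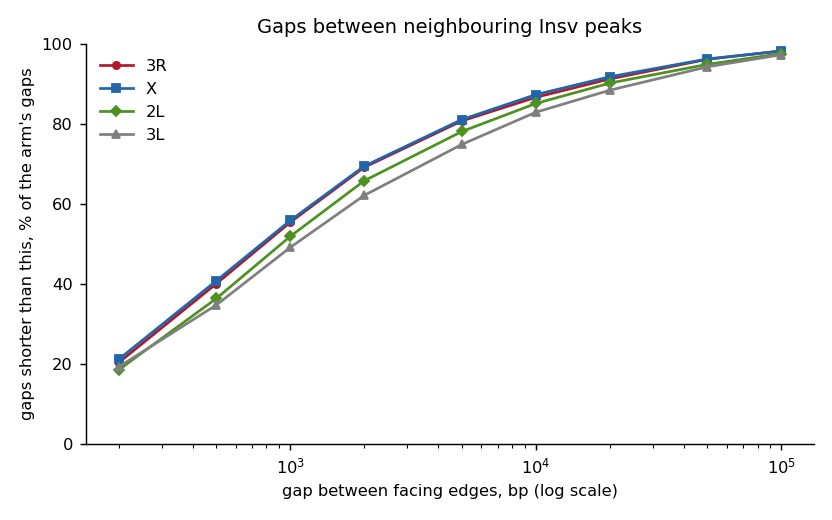
Cumulative share of the gaps between neighbouring peaks that are shorter than a given length (log scale), for 3R (circles), X (squares), 2L (diamonds) and 3L (triangles). The curve of 3R, with a median gap of 770 bp, runs with that of X (767 bp) and above those of 2L (921 bp) and 3L (1028 bp).

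Crowded regions held much of what lay on 3R. The 93 regions of 10 or more peaks contained 1656 of the 3293 (50.3%, 48.6 to 52.0) and took up 9.96% of the span. With peaks joined only within 2 kb, such regions held 796 peaks. With peaks joined within 5 kb, the share on the other arms was 52.4% on X (50.4 to 54.3), 50.5% on 2L (48.3 to 52.7) and 39.9% on 3L (37.8 to 42.1). Regions of 20 or more peaks numbered 28 on 3R, 22 on X, 15 on 2L and 10 on 3L, and on 3R they held 796 peaks, or 24.2% of the arm. At the other end, 201 peaks of 3R stood alone, with no other peak within 5 kb. They made up 6.10% (5.31 to 6.98), against 6.06% on X, 8.61% on 2L (7.43 to 9.91) and 10.1% on 3L (8.79 to 11.5).

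Solitary peaks on 3R were narrow but had scores at or above those of grouped peaks. Over the 201 solitary peaks the median score was 17.14 (16.32 to 19.39) and the median width 456 bp (414 to 502). In regions of 2 to 4 peaks the medians were 14.48 (13.97 to 15.26) and 503 bp, in regions of 5 to 9 they were 14.86 and 530 bp, and in regions of 20 or more they were 16.05 (15.33 to 16.59) and 568.5 bp (515 to 621). Scores under 10 were given to 11.9% of the solitary peaks, to 16.3% in regions of 2 to 4, 18.7% in regions of 5 to 9, 15.7% in regions of 10 to 19 and 12.6% in regions of 20 or more. Scores above 50 were given to 13 of the 201 solitary peaks, or 6.47% (3.49 to 10.8), and to 37 of the 796 peaks in regions of 20 or more, or 4.65% (3.29 to 6.35). On X 28 of 151 solitary peaks scored above 50 (18.5%, 12.7 to 25.7), and on 2L 62 of the 449 peaks in regions of 20 or more did (13.8%, 10.7 to 17.4). Neither of these concentrations was visible on 3R, where the 5 size classes ran from 3.84% to 6.47%. The same held for 3L, with 5.42% in solitary peaks (2.74 to 9.49) and 7.24% in regions of 20 or more (4.59 to 10.8). Each concentration was seen on 1 arm only, as X had 6.20% in regions of 20 or more and 2L had 7.95% in solitary peaks. The differences between the arms were not tested, and the score and width of a solitary peak come from the same list that defined it as solitary.

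**Figure D5:**
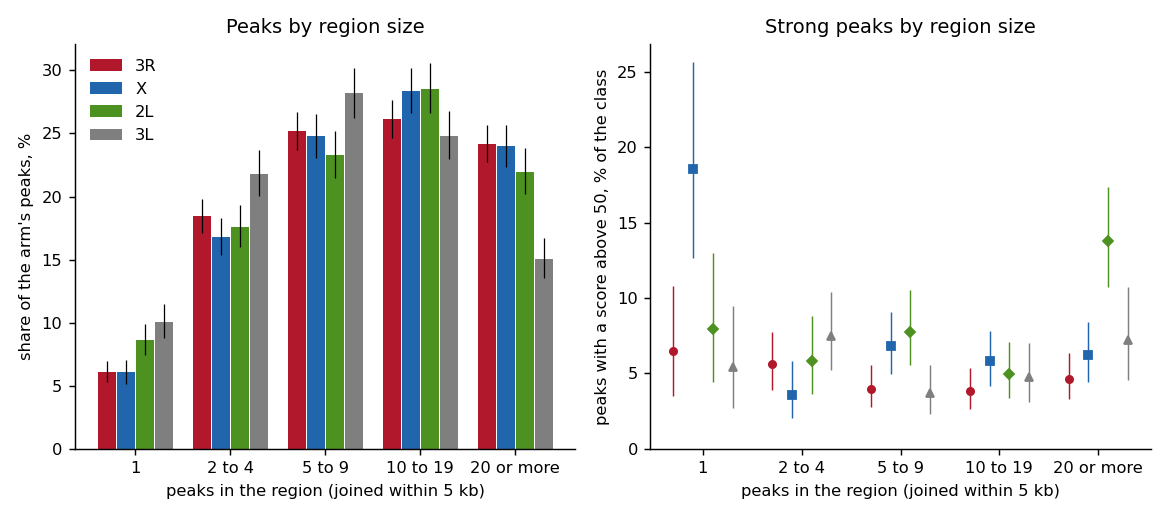
Left, share of each arm's peaks that lie in regions of 1, 2 to 4, 5 to 9, 10 to 19 and 20 or more peaks. Right, share of the peaks in each class with a score above 50; bars and points are in the order 3R, X, 2L and 3L, with exact 95% binomial intervals. On 3R the strong share lies between 3.84% and 6.47% in all 5 classes, and on 3L between 3.69% and 7.50%. It reaches 18.5% in solitary peaks of X and 13.8% in the largest regions of 2L.

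The region with the most peaks on 3R, 53 within 77.7 kb from 1425636 to 1503361, had a low median score. Its median score was 12.73, against 16.05 over all peaks in regions of 20 or more. Its best score was 44.6, and peaks covered 41.4% of it. The region next in number was unlike it. It ran from 12010666 to 12099198 and was also the longest of the arm, with 50 peaks in 88.5 kb, 55.3% covered, a median score of 21.17 and 10 peaks above 50, among them the peak of rank 9. The third had 46 peaks from 16880678 to 16967330, with 1 above 50 at 101.43. The fourth had 38 peaks from 5569238 to 5635526 and a best score of 43.39. The fifth place was shared by regions of 35 peaks, of which the one nearer the centromere, from 11144454 to 11198373, was 61.5% covered and had a best score of 41.62. Of these 5 regions, 3 held no peak above 50. Over the 28 regions of 20 or more peaks the best score had a median of 55.9 and a minimum of 35.29. In them 4.65% of the peaks scored above 50, so a region without such a peak was not unusual.

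The longest stretch of 3R without a peak was shorter than the longest on X, 2L or 3L. Gaps of more than 100 kb numbered 57 on 3R and summed to 9.43 Mb, 33.9% of the span, against 38.2% on X, 44.9% on 2L and 44.1% on 3L. They were spread over the arm, with 18, 20 and 19 in the 3 equal parts from the centromere to the telomere. Gaps above 300 kb numbered 3 on 3R, 7 on X, 10 on 2L and 6 on 3L. The longest on 3R ran from 23791310 to 24146235, or 354.9 kb, while the longest was 611782 bp on X, 631422 bp on 2L and 1299996 bp on 3L. The next on 3R lay from 1834498 to 2170978 (336.5 kb), from 3375306 to 3711529 (336.2 kb), from 23121908 to 23406762 (284.9 kb) and from 6720596 to 6982563 (262.0 kb). Outside gaps above 100 kb, density was 179 peaks per Mb on 3R, 181 on X, 162 on 2L and 148 on 3L. Whether these stretches lack Insv or hold sites too weak to be called cannot be told from the list.

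Peaks that bordered long peak-free stretches were like the others in score and width, and more often solitary. The 111 peaks next to a stretch above 100 kb scored 16.59 (14.48 to 19.39) and measured 481 bp (428 to 591) in the median, against 15.52 (15.26 to 16.05) and 540.5 bp (518 to 563) for the other 3182, with overlapping intervals. Of the 111, 44 stood alone (39.6%), against 157 of the other 3182 (4.93%). A bordering peak has no neighbour on 1 side by the way it was picked, so this difference follows in part from the choice. Scores above 50 were given to 4 of the 111, against 146 of the other 3182 and 4.56% of all peaks of the arm. At the longest stretch the bordering peaks scored 16.05 and 10.86, at the next 31.67 and 20.28, and at the third 44.6 and 30.97.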

How the data were processed

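The samples are 3 ChIP and 3 input samples of Kc167 cells. Per the submitters' processing notes, the build was BDGP5 and the tools were MACS2, BWA and CASAVA 1.7.0.2 and 1.7.0.3. Per the file headers, the peaks come from MACS on FlyBase release 5. The threshold, duplicate handling and the combination of replicates are not stated in the sources used here. The deposited list gives a score per peak, made by the authors' peak caller, and start and end in bp; it has no values per library.

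Peaks on 3R were taken by their chromosome name and compared with X, 2L and 3L. A peak's position was its midpoint. An arm's span reached from its first peak to its last. Peaks with facing edges within 5 kb were joined into regions. On 3R 2859 peaks share their score with another. Peak densities were compared with two-sided exact binomial tests over peaks, adjusted by Benjamini-Hochberg over 3 comparisons; other values are descriptions. The arm, tests and alternatives were chosen with earlier results of these data known. Named are the 10 strongest and 5 widest peaks, the weakest, the strongest of each 5 Mb, and the 5 extreme bins, regions and peak-free stretches; the region of the widest peaks was added after its values were seen. The calculations used Python 3.11.15, scipy 1.17.1, numpy 2.4.6, matplotlib 3.10.9 and pandas 2.3.3, and were tested on simulated data.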

Additional observations from a re-analysis of the deposited data

How the results depend on the processing

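Densities on 3R were recomputed in 6 ways, 2 of them (scores above 50 and above 30) added after seeing the data. The ratio to 3L kept its direction in all 6. It missed the threshold with peaks within 5 kb joined (1.09) and with scores above 50 (1.18). The ratio to 2L turned to 0.76 with scores above 50 and missed the threshold with scores above 30 (1.07). The ratio to X missed the threshold with joined peaks (1.07) and in complete 1 Mb bins (1.04). It fell below 1 among the strongest 50% of the peaks (0.99), without the 2 Mb that face the centromere (0.98) and with scores above 50 (0.73) or 30 (0.93). The causes were not tested. Among the strongest 50% the median width was 944.5 bp, and among peaks of at least 300 bp the median score was 18.25. The share of peaks with the next within reach was 55.8% at 2 kb, 91.1% at 20 kb, 80.8% between facing edges and 58.8% among the strongest 50%, where fewer peaks are left. Joining within 2 kb left 796 peaks in regions of 10 or more. Peak-free stretches numbered 126 above 50 kb and 12 above 200 kb. The ratio of variance to mean was 14.0 in 500 kb bins, 12.3 in 200 kb bins and 1.61 for joined peaks. Among the strongest 50% the shares of the 3 equal parts of the span were 33.7% (31.4 to 36.0), 32.9% (30.6 to 35.2) and 33.5% (31.2 to 35.8). They stayed within the intervals of all peaks. Each of these intervals includes an equal share, so the slight departures seen over all peaks were not seen there. No paired analysis was possible because the list holds nothing per library, and for the same reason no library could be left out. Unknown depth limits which weak peaks were called.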

Other observations

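Values in this part were looked up after seeing the data and carry no test. In 100 kb bins, 38 of 278 on 3R held no peak (13.7%), against 18.9% on X, 23.1% on 2L and 22.1% on 3L. On 3R 55 of these bins (19.8%) held 50% of the peaks, as did 19.8% on X, 14.8% on 2L and 15.2% on 3L. The fullest 100 kb of 3R held 64 peaks, against 50 on X, 48 on 2L and 51 on 3L.

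Neighbouring peaks of 3R had little likeness in score. Spearman's rho between a peak and the next was 0.09 over 3292 neighbours on 3R, 0.15 on X, 0.25 on 2L and 0.13 on 3L, each over peaks of the same list. Where the gap was at most 5 kb, rho was 0.11 on 3R (2659 neighbours), 0.16 on X (2019), 0.28 on 2L (1597) and 0.17 on 3L (1510).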
